A study of Mus musculus with 2 samples.

Results

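The 10 genes described here carry glucose into cells, trap and commit it to glycolysis, and interconvert and move lactate. They were chosen by name: the glucose carrier *Slc2a1*, the hexokinases *Hk1* and *Hk2*, the phosphofructokinases *Pfkl* and *Pfkp*, the lactate dehydrogenase subunit *Ldhb*, the lactate carriers *Slc16a1*, *Slc16a3* and *Slc16a8*, and *Bsg*, which encodes the carriers' partner protein basigin. All 10 were found among the 32285 genes counted, and all 10 had UMIs in both libraries. Optic cups of E17.5 mice gave 2 libraries of single cells, 1 of *Myrf* humWT/humWT mice (humWT below) and 1 of *Myrf* humdG/humdG mice (humdG below). *Myrf* encodes a membrane-bound transcription factor that the retinal pigment epithelium (RPE) uses. Both alleles carry the human last exon of *MYRF* in place of the mouse one, in every cell of the animal, so the control is itself a humanized mouse, and humdG differs from it by a variant that shifts the reading frame at the C-terminus. The labels describe several embryos pooled per library after removal of lens, optic nerve and cornea, whereas the study's methods describe eyes with the cornea in place, and the labels' treatment text names other, conditional mice. Each genotype is therefore 1 sample, no test between genotypes was made, and the intervals below, all at 95%, take in the error of counting and nothing else. Because the altered exon holds the 3′ end that the method counts, *Myrf* UMIs do not check the genotype labels.

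The RPE lies between the choroidal blood supply and the photoreceptors. Glucose from the choroid crosses the RPE through GLUT1, the product of *Slc2a1*, and photoreceptors release lactate that the RPE takes up and passes on through monocarboxylate transporters. MCT1 (*Slc16a1*) and MCT3 (*Slc16a8*) are the carriers of the RPE, MCT3 is known for its basolateral place there, and MCT4 (*Slc16a3*) is the carrier of strongly glycolytic cells. Basigin accompanies MCT1, MCT3 and MCT4 to the membrane. Hexokinase 1 is the form of most tissues and hexokinase 2 the inducible form, and the B subunit of lactate dehydrogenase favours the step from lactate to pyruvate whereas the A subunit (*Ldha*) favours the reverse.

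A member's level is given in CPM, its UMIs per 1000000 UMIs of all genes, both summed over the cells of a class. A UMI marks 1 captured transcript at its 3′ end, so levels were not divided by gene length. The libraries held 17421 humWT and 19565 humdG barcodes with medians of 3758 and 2572 UMIs, and 102 barcode sequences were in both. After filtering, 16166 and 18173 cells fell into 24 clusters, of which 19 were named by markers and 12 named classes were compared. Named clusters held 62.7% of humWT and 46.1% of humdG cells. The largest unnamed cluster held 21.8% and 42.7% of the cells and was shallow, with medians of 2303 and 1658 UMIs. The RPE-like class, 2 clusters with 560 humWT and 401 humdG cells, had 9 of 10 RPE markers raised in its larger cluster and 8 of 10 in the smaller. *Rpe65*, a visual cycle enzyme of the mature RPE, had 3 UMIs in each library. *Slc16a8* was among the genes that led the larger cluster, so its high level there is partly what placed the cells together.

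In the gene annotation of GRCm38, *Slc2a1* is at chr4:119108711-119137983 on the plus strand and *Slc16a8* at chr15:79251014-79254761 on the minus strand. *Slc16a8* spans 3.75 kb and *Hk1*, the longest member, 111 kb. *Slc16a8* lies within *Gm49486*, on the opposite strand, and *Gm12868* overlaps the 3′ end of *Slc2a1*, also on the opposite strand. *Pitrm1*, *Hk1os* and *Gm17034* overlap *Pfkp*, *Hk1* and *Hk2*, and whether the counting used strand is not given in the sources used here. Promoters of 9 of the 10 members (10 windows, since *Hk1* has 2; *Bsg* was not matched) were read from RefSeq on GRCm38.p6, from 250 bases before to 50 bases after the start. They were searched on both strands for ACGTG, the core that hypoxia-inducible factors bind, which stood in 19.6% of 32851 promoters. A first E-box, CACGTG, holds that core within it and stood in 7.15% of promoters. Another E-box, CATGTG, stood in 14.2%, and both E-boxes are bound among others by MITF, a factor of pigment cells. The core was found in 5 of the 9 members (*Slc2a1*, *Hk1*, *Hk2*, *Slc16a1* and *Slc16a3*), the first E-box in *Slc16a1* and the other in *Hk1*. The core contains the bases CG, and the windows that hold it had 18 to 42 CG pairs, beside a median of 7 over all promoters. The windows of *Pfkl*, *Pfkp* and *Ldhb*, without it, had 17 to 21. The 19.6% is not matched for CG pairs, so the share of members is no sign of enrichment. The windows of *Pfkl*, *Pfkp*, *Ldhb* and *Slc16a8* held none of the motifs. The matches in the carriers and in *Hk2*, the members whose values are followed most closely below, are printed 5′ to 3′ with the motif in capitals, on the strand of the gene. A match is a description of the letters and shows no binding. Distances are from the start used for the promoter window, which can differ from the start in the gene annotation. The *Slc2a1* match spans the annotated gene start, and the *Slc16a3* matches lie within the annotated gene.
Slc2a1, 36 bases before the start, chr4:119108697-119108725, plus strand: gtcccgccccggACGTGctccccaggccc
Hk2, 226 bases before the start, chr6:82774664-82774692, minus strand: agccacggaacaCACGTcccaactctggc
Hk2, 52 bases before the start, chr6:82774490-82774518, minus strand: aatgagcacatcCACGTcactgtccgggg
Slc16a1, 200 bases before the start, chr3:104638452-104638481, plus strand: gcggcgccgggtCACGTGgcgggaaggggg
Slc16a1, 20 bases after the start, chr3:104638672-104638700, plus strand: tggcgagctgcgACGTGactggtcggtcg
Slc16a3, 27 bases before the start, chr11:120949028-120949056, plus strand: caggcagcggtgACGTGcgcgggggacgt
Slc16a3, 14 bases before the start, chr11:120949041-120949069, plus strand: cgtgcgcgggggACGTGccgcgcgacgga

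RPE-like cells had the highest level of 7 of the 10 members in both libraries: *Slc2a1*, *Hk1*, *Pfkl*, *Ldhb*, *Slc16a1*, *Slc16a8* and *Bsg*. The order of the others was led by blood and neural classes. Hemoglobin made up a large part of the UMIs of red blood cell-like cells, which lowers that class's CPM of every other gene. A further named class, neural crest and glia-like cells, had 50 and 40 cells and is left out of the order and of the comparisons. It is given only where its level bears on a rank, a range or a direction. Because clusters were formed from all genes, these levels describe the classes and are no test of them. How many of all genes were highest in RPE-like cells was not counted, so the 7 of 10 is no result about the members. The sections that follow take the members by role, from glucose entry to lactate export.

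**Figure D1:**
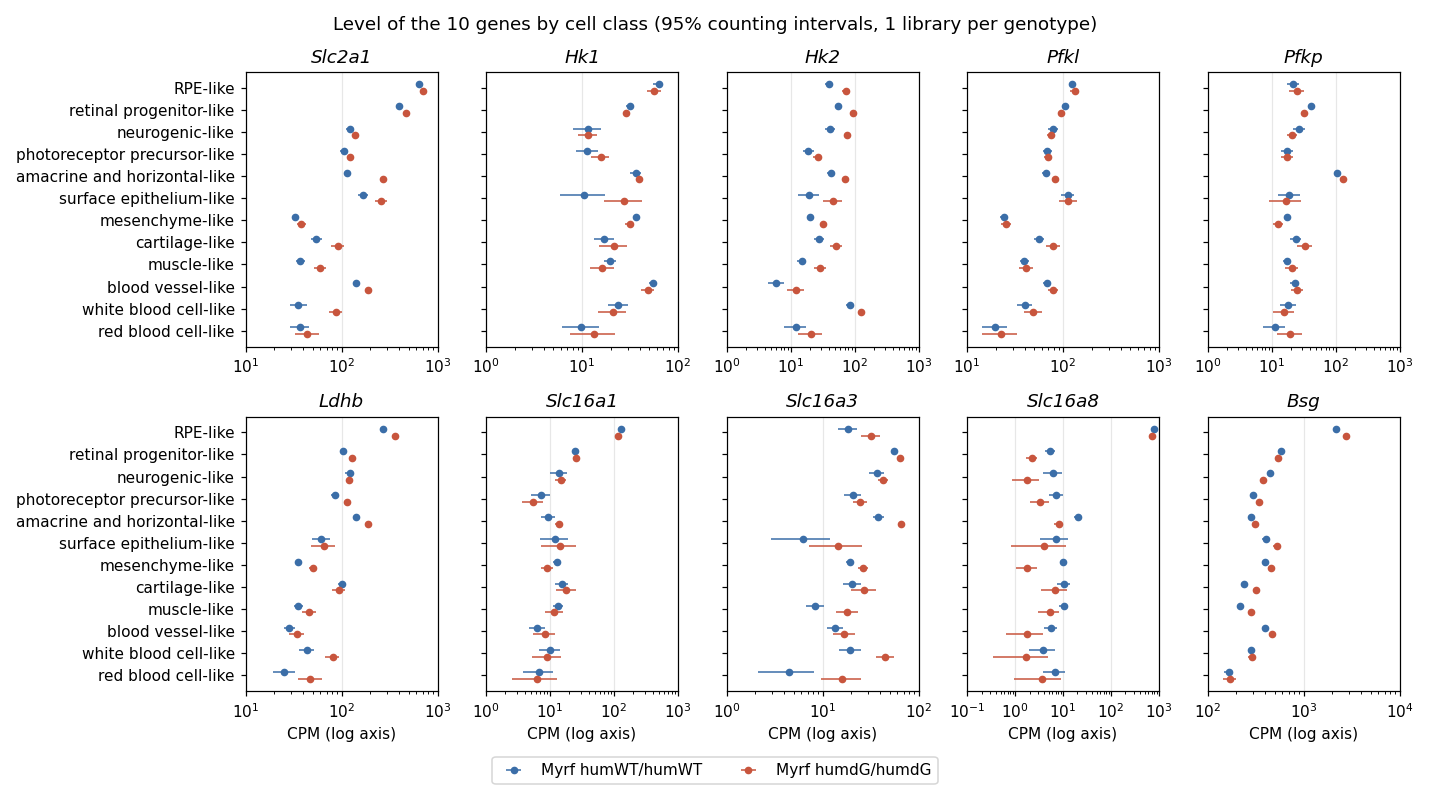
CPM of each of the 10 members (1 panel per gene, log axis) in the 12 cell classes, with 1 point per library (humWT and humdG) and 95% Poisson intervals that cover counting error only. RPE-like cells stand highest for 7 members, most widely for *Slc16a8* at 773 and 709 CPM, while *Pfkp* is highest in amacrine and horizontal-like cells at 106 and 132 CPM. The share of all genes highest in RPE-like cells was not counted.

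*Slc2a1* stood at 637 CPM in humWT RPE-like cells (614 to 661) and at 700.5 CPM in humdG RPE-like cells (668 to 734). The next class in both libraries was the retinal progenitor-like one, the dividing cells of the neural retina, with 394 and 465 CPM, so the RPE-like level was 1.62 and 1.51 times higher, with separate intervals. The third was surface epithelium-like cells at 168 CPM in humWT and amacrine and horizontal-like cells at 270.2 CPM in humdG. The larger amacrine and horizontal-like cluster alone had 137 CPM in humdG. GLUT1 is also known as the glucose carrier of barrier endothelium, and blood vessel-like cells had 142 and 190.3 CPM. In humWT, the neighbours from surface epithelium-like cells down to photoreceptor precursor-like cells (105 CPM) overlapped pairwise in their intervals. Mesenchyme-like cells were lowest, at 32.5 and 38.1 CPM, a span of 19.6 and 18.4 times from the lowest class to the RPE.

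The hexokinases, which phosphorylate glucose so that it stays in the cell, differed in where they were high. *Hk1* had 62.6 CPM in humWT and 55.9 CPM in humdG RPE-like cells, and its interval overlapped that of blood vessel-like cells (54.6 and 48.5 CPM) in both libraries. *Hk2* was highest in white blood cell-like cells, with 84.8 and 128 CPM, and second in retinal progenitor-like cells, with 55.3 and 94.1 CPM. RPE-like cells had 39.8 CPM of *Hk2* in humWT and 74.1 CPM in humdG, and their intervals overlapped those of neurogenic-like cells in both libraries. Blood vessel-like cells, high in *Hk1*, were the lowest of the 12 classes in *Hk2* at 5.99 and 12.1 CPM. *Hk2* therefore made up 38.9% (34.3 to 43.6) of the *Hk1* and *Hk2* UMIs of humWT RPE-like cells and 57.0% (51.4 to 62.5) of those of humdG RPE-like cells. The share was 9.90% and 20% in blood vessel-like cells, 63.6% and 76.7% in retinal progenitor-like cells and 78.1% and 86.0% in white blood cell-like cells.

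The phosphofructokinases catalyse the committed step of glycolysis, with *Pfkl* encoding the liver form and *Pfkp* the platelet form. *Pfkl* had 125 CPM in humWT and 132 CPM in humdG RPE-like cells, and surface epithelium-like cells, second with 112 CPM in each library, overlapped it. *Pfkp* was low in RPE-like cells, at 21.9 and 24.7 CPM, with an interval that overlapped those of its neighbours in the order. It reached 106 and 132 CPM in amacrine and horizontal-like cells, 2.62 and 3.97 times the next class. *Pfkp* thus held 14.9% and 15.7% of the 2 genes' UMIs in RPE-like cells but 61.3% and 61.8% in amacrine and horizontal-like cells, the interneurons of the inner retina.

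*Ldhb* had 269.7 CPM in humWT RPE-like cells (254 to 286) and 359 CPM in humdG RPE-like cells (336 to 384). Of the 12 classes, amacrine and horizontal-like cells came second, with 141 and 189.8 CPM, so the RPE-like level was 1.91 and 1.89 times higher. The larger cluster of that class had 210 CPM (196 to 226) and 323 CPM (310 to 338), and the smaller 48.7 and 54.1 CPM. In humdG the interval of the larger cluster overlapped that of RPE-like cells. The few neural crest and glia-like cells, outside the 12, lay between the RPE-like class and the second, with 213 CPM (184 to 246) and 227 CPM (192 to 267). Blood vessel-like cells and red blood cell-like cells were at the low end, between 25.4 and 47.3 CPM. Against its counterpart *Ldha*, *Ldhb* made up 39.8% (38.0 to 41.6) of the UMIs of both in humWT RPE-like cells, compared with 11.1% in retinal progenitor-like, 7.86% in photoreceptor precursor-like and 25.9% in amacrine and horizontal-like cells. In humdG the same shares were 32.1% (30.4 to 33.9), 11.4%, 8.07% and 25.5%. Neural crest and glia-like cells had 29.0% (25.6 to 32.6) in humWT, below the RPE-like share, and 32.1% (27.8 to 36.6) in humdG, level with it.

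Of the lactate carriers, *Slc16a8* was the most uneven across classes. It had 773 CPM in humWT RPE-like cells (747 to 800) and 709 CPM in humdG RPE-like cells (676 to 743), while amacrine and horizontal-like cells, second in both, had 20.04 and 8.07 CPM. The RPE-like level was 38.6 and 87.8 times higher than the second. That second place rests on the smaller amacrine and horizontal-like cluster, with 36.8 and 13.6 CPM. Its top cell held 24.1% of its humdG *Slc16a8* UMIs. The larger cluster had 7.51 and 2.62 CPM. RPE-like cells were 3.46% and 2.21% of the cells but held 76.7% and 79.7% of all *Slc16a8* UMIs. *Slc16a1* was also highest in RPE-like cells, with 127 CPM in humWT and 115 CPM in humdG, 5.14 and 4.59 times the retinal progenitor-like level. An unnamed cluster of 938 and 578 cells, outside the classes, was above that level, with 36.0 CPM (33.1 to 39.0) and 30.9 CPM (27.6 to 34.4). *Slc16a3* was not highest in RPE-like cells, with 18.4 and 31.6 CPM there. Its levels were 55.6 and 63.8 CPM in retinal progenitor-like cells and 38.2 and 66.4 CPM in amacrine and horizontal-like cells. These last 2 classes overlapped in humdG and not in humWT.

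The mix of the 3 carriers in the RPE-like class differed from that in the neural classes. *Slc16a8* made up 84.2% and 82.8% of the 3 genes' UMIs in RPE-like cells, *Slc16a1* 13.8% and 13.5%, and *Slc16a3* 2.01% and 3.69%. In retinal progenitor-like cells *Slc16a3* held 65.0% and 70.0%, and in photoreceptor precursor-like cells 59.1% and 73.7%. *Bsg*, which all 3 carriers use, was the most abundant member in every class compared. It reached 2159 CPM in humWT RPE-like cells (2115 to 2203) and 2775 CPM in humdG RPE-like cells (2710 to 2842), 3.68 and 5.15 times the next of the 12 classes. The lowest class, red blood cell-like cells, had 166 and 169.7 CPM, values lowered by that class's hemoglobin UMIs. Neural crest and glia-like cells, outside the 12, had 728 and 782 CPM of *Bsg*, above that next class.

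**Figure D2:**
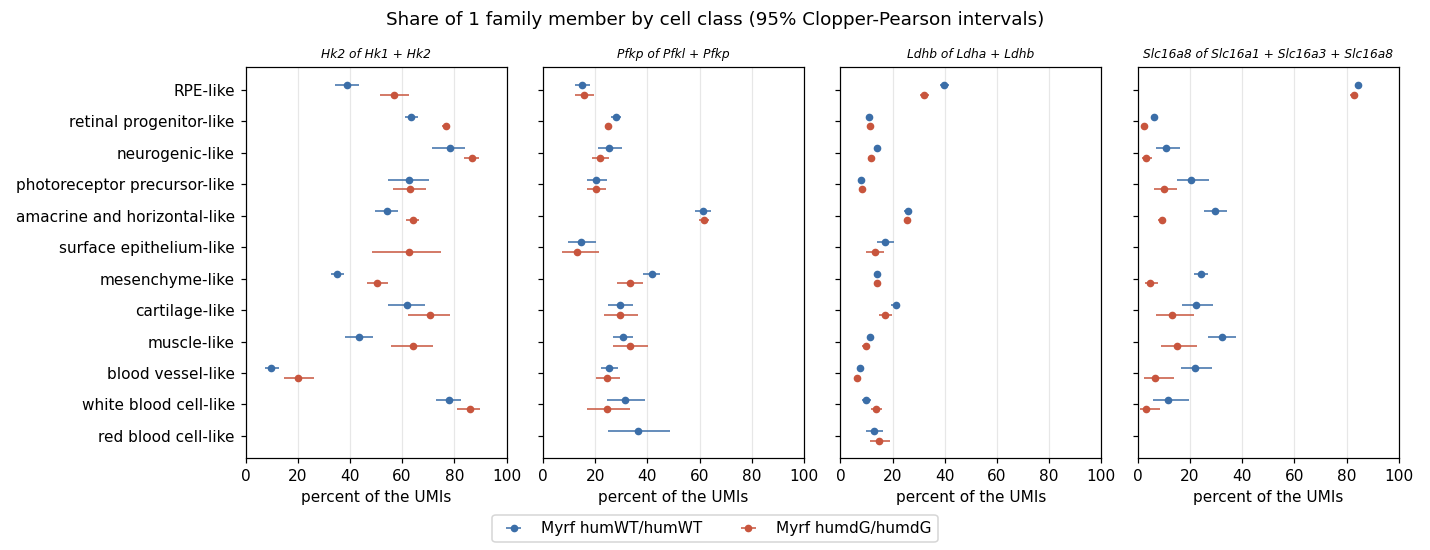
Share of UMIs, in percent, by cell class and library. The shares are of *Hk2* in *Hk1* and *Hk2*, *Pfkp* in *Pfkl* and *Pfkp*, *Ldhb* in *Ldha* and *Ldhb*, and *Slc16a8* in the 3 lactate carriers. Other genes of these families are not in the sums. Intervals are exact 95% binomial ones, and there is no point where a sum had under 50 UMIs. *Slc16a8* takes 84.2% and 82.8% in RPE-like cells, *Ldhb* is highest of the 12 classes there at 39.8% and 32.1%, and *Pfkp* takes 61.3% and 61.8% in amacrine and horizontal-like cells.

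At the level of single cells, *Slc16a8* was detected with at least 1 UMI in 53.2% of humWT RPE-like cells (49.0 to 57.4) and 50.1% of humdG RPE-like cells (45.1 to 55.1), at median depths of 3866 and 2585 UMIs. In red blood cell-like cells, a class that is not known to use it, the share was 3.00% and 1.20% at median depths of 4017 and 4165 UMIs. With each cell thinned to 1000 UMIs, which kept 560 and 399 RPE-like cells, the share was 24.1% and 26.8%, against 0.609% and 0.823% in red blood cell-like cells. *Bsg* was detected in 46.8% of thinned humWT and 58.9% of thinned humdG RPE-like cells. For *Hk2* the thinned share was 2.50% (1.37 to 4.16) and 6.52% (4.30 to 9.40). Red blood cell-like cells gave 1.62% (0.703 to 3.17) and 4.53% (2.28 to 7.96), with intervals that overlap those of RPE-like cells. A large part of the UMIs of red blood cell-like cells is hemoglobin, which lowers their shares for other genes at equal depth. A free RNA estimate that rests on assumptions is given below for RPE-like cells, and none was made for red blood cell-like cells. How much of either class's *Hk2* is free RNA was not tested.

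The 2 RPE-like clusters were not alike. The larger, with 487 humWT and 386 humdG cells, had 846 and 721 CPM of *Slc16a8*, 2409 and 2848 CPM of *Bsg*, and 688 and 709 CPM of *Slc2a1*. In the smaller, with 73 and 15 cells, the same genes had 212 and 350.3 CPM, 218 and 689 CPM, and 244 and 447 CPM. All 3 genes were thus lower in the smaller cluster in both libraries, with separate intervals. In humWT, *Ldhb* and *Pfkl* were also lower there, at 44.3 and 58.5 CPM against 299 and 134 CPM in the larger. The smaller cluster's humWT levels of *Bsg*, *Slc2a1*, *Ldhb* and *Pfkl* were below those of some other classes. The first places of the RPE-like class for these genes in humWT thus rest on the larger cluster. An unnamed cluster of 102 and 60 cells led by the pigment genes *Dct* and *Tyrp1*, with 6 of 6 melanocyte markers raised, had 2.83 and 1.08 CPM of *Slc16a8* (5 and 1 UMIs), 26.0 and 67.1 CPM of *Slc2a1* and 690.2 and 774 CPM of *Bsg*.

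Between genotypes, RPE-like cells had more *Hk2* and *Slc16a3* in humdG and ratios closer to 1 for *Slc2a1*, *Slc16a1* and *Slc16a8*. *Hk2* was 1.86 times higher (1.504 to 2.31), from 39.8 CPM (173 UMIs) in humWT to 74.1 CPM (183 UMIs) in humdG. *Slc16a3* was 1.72 times higher (1.24 to 2.37), from 18.4 CPM (80 UMIs) to 31.6 CPM (78 UMIs), but barcodes with under 1000 UMIs held it at 42.2 CPM (6 UMIs) and 40.002 CPM (18 UMIs), above both levels. These were the 2 of 10 members more than 1.5 times higher, where 7.03% of 12635 genes with at least 20 UMIs were past that ratio. None of the 10 was more than 1.5 times lower, where 15.4% of all genes were. *Bsg* was 1.29 times higher (1.25 to 1.33) and *Ldhb* 1.33 times higher (1.22 to 1.45), but these values moved with the processing. Over the alternatives given below, the log2 ratio of *Bsg*, 0.36, ranged from 0.16 to 0.54 and lay outside its counting interval in most. That of *Ldhb*, 0.41, ranged from 0.24 to 0.58. For *Slc2a1* the ratio was 1.10 (1.03 to 1.17) and for *Slc16a8* 0.92 (0.86 to 0.97). *Hk1*, *Pfkl*, *Pfkp* and *Slc16a1* had ratios of 0.89, 1.06, 1.13 and 0.91 with intervals that hold 1. The median log2 ratio of the 10 members was 0.16, beside -0.07 over all genes, and 7 of 10 were above 0, beside 44.1% of all genes.

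The value for *Slc16a3* fell below that ratio in 1 alternative, with a log2 ratio of 0.57 when the libraries were clustered without integration, and the sign was not the same in every alternative for 6 members: *Slc16a8* (-0.31 to 0.36), *Slc2a1* (-0.03 to 1.04), *Hk1* (-0.23 to 0.08), *Pfkl* (-0.36 to 0.44), *Pfkp* (-0.02 to 1.48) and *Slc16a1* (-0.29 to 0.24). Other lineages' markers in the RPE-like class moved with genotype: the summed level of 10 mesenchyme markers was 2663 CPM in humWT and 1202 CPM in humdG, that of 8 muscle markers 673 and 224 CPM, and that of 8 retinal progenitor markers 689 and 1033 CPM, with no gene of these lists at 0 in either library. Hemoglobin UMIs were 0.568% and 0.727% of the class. Scaled by hemoglobin, free RNA was estimated at 38.0% and 38.4% of the UMIs of the class. The estimate takes the barcodes with under 1000 UMIs as free RNA and all hemoglobin of the class as free RNA. Neither assumption was tested, and those barcodes may hold small cells. With the estimate subtracted, *Hk2* had a log2 ratio of 0.98 and *Slc16a3* one of 2.79. The latter rests on the 3.77 CPM that were left of *Slc16a3* in humWT, against 26.1 CPM in humdG. The part of the other lineages in the ratios was not tested.

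Other genes of the pathway were taken from a list of 45 chosen by role, of which 37 had at least 20 UMIs in RPE-like cells. In humdG, 4 of the 37 were more than 1.5 times higher and 2 more than 1.5 times lower, beside the same 7.03% and 15.4% of all genes, and 24 of 37 were above 0. *Ldha*, which encodes the subunit of pyruvate reduction, had 408 CPM in humWT and 759 CPM in humdG, a log2 ratio of 0.90 (0.80 to 0.99). The glycolytic enzyme gene *Tpi1* had 398 and 619 CPM (0.64, 0.54 to 0.74) and *Bnip3*, a mitophagy gene known as a hypoxia target, 33.1 and 53.9 CPM (0.70, 0.35 to 1.05). The oxygen sensor *Egln3* had 8.05 and 12.96 CPM, with an interval that holds 0. *Aldoc* and *Eno2*, isoforms of aldolase and enolase known from neurons and glia, were lower, from 79.4 to 49.8 CPM and from 20.7 to 13.4 CPM. Among the 11 glycolysis genes 7 were above 0, with a median of 0.33, and among the 8 counted genes of pyruvate entry and oxidation 4 were, with a median of -0.01. The 3 other lactate carriers or partners, *Slc16a7*, *Slc16a4* and *Emb*, were between 5.75 and 13.8 CPM in both libraries.

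**Figure D3:**
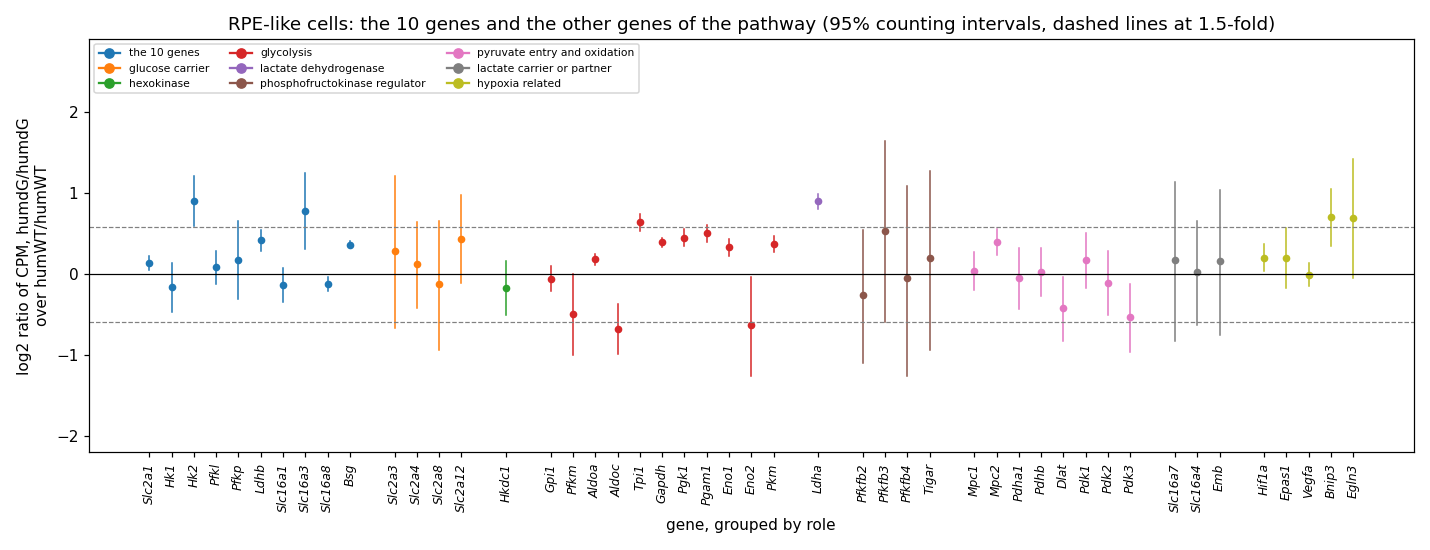
Log2 ratio of humdG to humWT in RPE-like cells for the 10 members and the other genes of the pathway with at least 20 UMIs, ordered by role, with exact 95% intervals that cover counting error only and lines at 1.5-fold. *Hk2* (0.90) and *Slc16a3* (0.78) lie past the upper line, as do *Ldha* (0.90), *Tpi1*, *Bnip3* and *Egln3*, and no member lies past the lower line.

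Across the 12 classes, the ratios of *Slc2a1*, *Hk2* and *Slc16a3* were above 0 in 12 of 12. The few neural crest and glia-like cells, outside the 12, had 101 and 99.7 CPM of *Slc2a1*. They had 4.45 and 10.9 CPM of *Hk2* (4 and 7 UMIs) and 7.78 and 18.7 CPM of *Slc16a3* (7 and 12 UMIs). The counting interval held 0 for *Slc16a3* in 5 of them (blood vessel, cartilage, neurogenic, photoreceptor precursor and surface epithelium-like cells), for *Slc2a1* in neurogenic and red blood cell-like cells and for *Hk2* in red blood cell-like cells. *Hk2* ranged from a log2 ratio of 0.49 in photoreceptor precursor-like cells to 1.22 in surface epithelium-like cells and was past 1.5-fold in 11 classes. *Slc2a1* ranged from 0.14 in RPE-like cells, its smallest ratio of the 12, to 1.28 in white blood cell-like cells, past 1.5-fold in 5. *Slc16a3* ranged from 0.20 in retinal progenitor-like to 1.85 in red blood cell-like cells, past 1.5-fold in 6. Classes of 1 library share its preparation and depth, so the 12 are not 12 replicates of the genotype. How many of all genes were above 0 in all 12 classes was not counted, so the 12 of 12 has no share beside it. In barcodes with under 1000 UMIs, *Slc2a1* had 77.4 CPM (11 UMIs) in humWT and 158 CPM (71 UMIs) in humdG. *Hk2* had 28.1 CPM (4 UMIs) and 44.4 CPM (20 UMIs) there, and *Slc16a3*, at 42.2 and 40.002 CPM, was not higher in humdG. Mesenchyme-like cells had 32.5 and 38.1 CPM of *Slc2a1*, below those barcodes in both libraries. The part of free RNA in these ratios was not tested. The median over all genes was itself 0.44 in cartilage-like and 0.15 in amacrine and horizontal-like cells, -0.13 in mesenchyme-like cells and between -0.10 and 0.06 in the others. Relative to that median, *Slc2a1* and *Hk2* remained above 0 in 12 classes and *Slc16a3* in 11, with cartilage-like cells at -0.03.

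**Figure D4:**
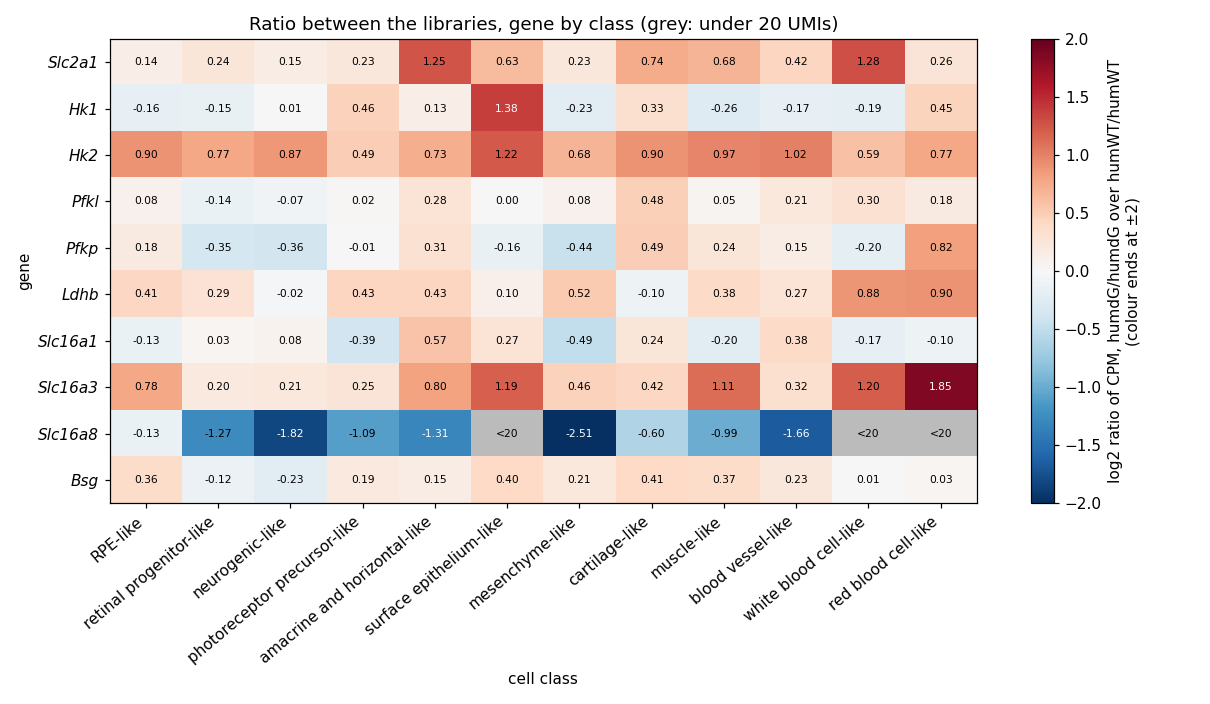
Log2 ratio of humdG to humWT for the 10 members (rows) in the 12 cell classes (columns), as a colour scale with the values printed, from UMIs summed per class and library. *Hk2*, *Slc2a1* and *Slc16a3* are above 0 in all 12 classes, and *Slc16a8* is below 0 in all 9 classes where it had at least 20 UMIs. The matching counts over all genes were not made.

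The other members had no common direction. *Ldhb*, *Bsg* and *Pfkl* were above 0 in 10 of 12 classes, with medians of 0.40, 0.20 and 0.08, and *Hk1*, *Pfkp* and *Slc16a1* in 6 of 12. *Ldha*, outside the list, was above 0 in 12 of 12, from 0.24 in retinal progenitor-like to 0.90 in RPE-like cells. In neural crest and glia-like cells, outside the 12, it was at -0.12 (-0.33 to 0.09). *Slc16a8* was below 0 in the 9 classes where it had at least 20 UMIs, from -0.13 in RPE-like to -2.51 in mesenchyme-like cells, and past 1.5-fold in the 8 other than RPE-like. For the directions of these genes too, the number of all genes that share them was not counted.

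The counts past 1.5-fold stood as follows beside those of all genes in the same class. In retinal progenitor-like cells *Hk2* was higher, where 5.14% of genes were, and *Slc16a8* lower, where 10.5% were. In neurogenic-like cells the same 2 members were past the ratio, beside 5.42% and 10.1%. Photoreceptor precursor-like cells had no member higher beside 6.13%, and *Slc16a8* lower beside 10.7%. Amacrine and horizontal-like cells had *Slc2a1*, *Hk2* and *Slc16a3* higher beside 12.3%, and *Slc16a8* lower beside 12.1%.

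That class rests on 2 clusters that differed. In the larger alone, the log2 ratios were 0.40 for *Slc2a1*, 0.25 for *Hk2*, 0.27 for *Slc16a3* and -0.51 for *Pfkp*, in place of 1.25, 0.73, 0.80 and 0.31 over the class, so its 3 higher members depend on the smaller cluster. In the smaller alone *Slc2a1* was at 1.68 and *Pfkp* at 0.93.

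Among the classes outside the neural retina, blood vessel-like cells had *Hk2* higher beside 6.02% and *Slc16a8* lower beside 10.5% of genes. Mesenchyme-like cells had the same 2 members past the ratio beside 3.75% and 13%. Muscle-like cells had *Slc2a1*, *Hk2* and *Slc16a3* higher beside 7.92%, and *Slc16a8* lower over the whole class, though not in its larger cluster, beside 11.7%. Cartilage-like cells, 1258 in humWT and 139 in humdG, had *Slc2a1* and *Hk2* higher where 39.6% of all genes were, a larger share than 2 of 10, and *Slc16a8* lower beside 6.92%.

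Surface epithelium-like cells had *Slc2a1*, *Hk1*, *Hk2* and *Slc16a3* higher beside 7.86% and none of 9 members lower beside 14.8%. White blood cell-like cells had *Slc2a1*, *Hk2*, *Ldhb* and *Slc16a3* higher beside 10.2% and none of 9 lower beside 11.7%. Red blood cell-like cells had *Hk2*, *Pfkp*, *Ldhb* and *Slc16a3* higher beside 14.1% and none of 9 lower beside 27% of genes. In these 3 classes *Slc16a8* had under 20 UMIs and was not compared. Of the members named as past 1.5-fold, the interval of the ratio held 1 for *Hk2* (0.93 to 3.09) and *Pfkp* (0.95 to 3.25) in red blood cell-like cells, for *Slc16a3* in surface epithelium-like cells (9 and 11 UMIs, 0.86 to 6.22) and for *Slc16a8* in cartilage-like cells (0.32 to 1.27).

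In the 11 other classes compared, *Slc16a8* was between 3.84 and 20.04 CPM in humWT and between 1.69 and 8.07 CPM in humdG. The summed level of the 10 RPE markers differed between libraries in the same direction. Groups that were not compared lay partly beyond these ranges. Neural crest and glia-like cells had 1.11 and 1.56 CPM, the unnamed cluster led by *Dct* and *Tyrp1* 2.83 and 1.08 CPM, and the largest unnamed cluster 18.7 and 9.43 CPM. That sum was 208 to 712 CPM in the 11 other classes of humWT and 73.0 to 298 CPM in those of humdG, and it was lower in humdG in each class, for example 251 and 119 CPM in retinal progenitor-like cells and 299 and 73.0 CPM in mesenchyme-like cells. Per 100 RPE marker UMIs there were 4.12 and 3.88 *Slc16a8* UMIs in RPE-like cells, and 1.501 to 3.40 in the 11 other humWT classes and 1.27 to 3.55 in those of humdG. Over all cells outside the RPE-like class, unnamed clusters included, there were 1.15 in humWT and 0.94 in humdG. The 177 humWT and 540 humdG barcodes with under 1000 UMIs had 1 and 4 *Slc16a8* UMIs, or 7.03 and 8.89 CPM. The part of free RNA in these low levels was not tested.

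**Figure D5:**
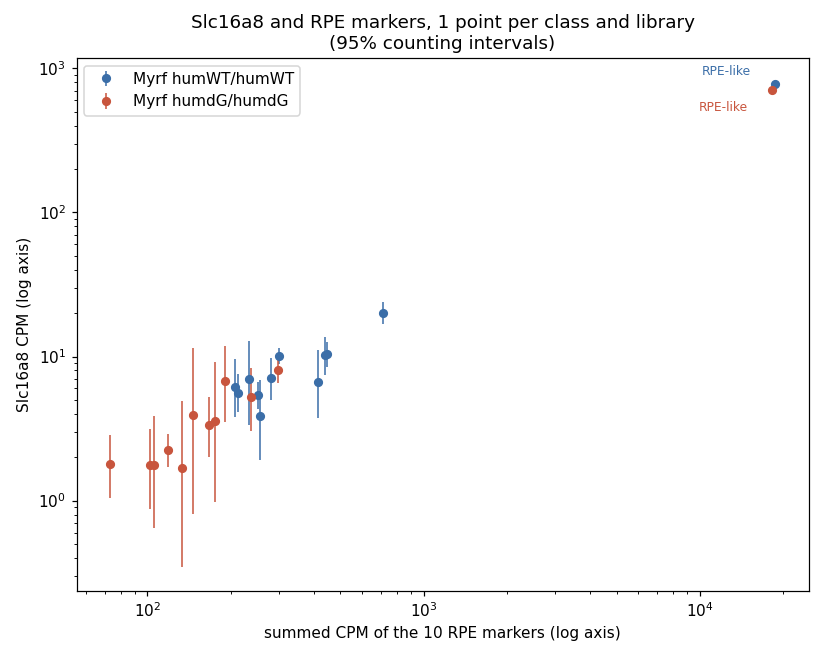
CPM of *Slc16a8* against the summed CPM of the 10 RPE markers (both axes logarithmic), with 1 point per cell class and library. RPE-like cells lie apart at 773 and 709 CPM, and the other classes lie at or below 20.04 CPM. Each of the classes compared is lower in humdG than in humWT on both axes.

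The genes whose levels followed 9 of the members most closely over the 24 class levels (12 classes in 2 libraries, 7801 genes, Pearson's r of log2 levels) are given as a description, since the points share libraries and depth. *Slc16a8* was most like *4933429O19Rik* (0.99), *Tmem72* (0.99) and *Tspan10* (0.99), and *Slc16a1* most like *Tmem98* (0.95), *Ermn* (0.94) and *Fcor* (0.93). *Slc2a1* was most like another member, *Pfkl* (0.89), and *Slc16a3* was most like *Gm15283* (0.86), *Bnip3* (0.86) and *Dennd4a* (0.85). *Pfkp* followed *Cdh22* (0.94), *Sntg1* (0.93) and *Gria4* (0.92), *Ldhb* followed *Haghl* (0.92), *Pfkl* followed *Prdx6* (0.92), *Hk1* followed *Stim2* (0.87) and *Hk2* followed *Pim1* (0.83). Within the list, *Slc16a1* and *Slc16a8* had an r of 0.90 and *Slc16a3* and *Slc16a8* one of -0.02.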

How the data were processed

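The authors aligned the reads and counted UMIs with Cell Ranger 7.1.0 (file header), and the submitters' notes name build mm10 and Seurat 4.1.1. The deposited values are raw counts of UMIs per gene and barcode, without normalization. Whether intron reads were counted is not given in the sources used here. The members, the marker and pathway lists and the rules were chosen with earlier results of these data known.

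The filter kept barcodes above 500 genes whose mitochondrial share of UMIs was below 15%. Scrublet in scanpy 1.11.5 called 1 and 0 doublets, and the top 5% by score were therefore taken out instead. Cells were clustered in Seurat 5.3.0 (R 4.3.3) after canonical correlation integration, with 2000 variable genes, 20 of 30 principal components and resolution 0.5. A cluster took the name of the class with the highest share of its markers raised at least 2 times over other cells (10 CPM added, at least 10% of cells, at least 3 markers). It stayed unnamed with fewer than 3 raised markers, or if another class had more markers among its 10 leading genes.

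UMIs were summed per class and library. CPM have exact Poisson intervals, shares exact Clopper-Pearson intervals and ratios exact conditional binomial intervals (scipy 1.17.1), all at 95%, and ratios need at least 20 UMIs over both libraries. The ratio step was tested on simulated data. All members are named. Genes of the pathway list are named at 50 UMIs or more and past 1.5-fold, and for likeness the 3 genes of highest Pearson's r. Names added after the values were seen are those of *Slc16a7*, *Slc16a4*, *Emb*, *Rpe65* and the overlapping genes. Gene positions are from GENCODE M21 on GRCm38. Figures were drawn with matplotlib 3.10.9.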

Additional observations from a re-analysis of the deposited data

Results flagged for a closer look

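For 4 members, the log2 ratio of humdG to humWT, taken relative to the median of all genes in the class, lay on opposite sides of 0 in a pair of classes with both counting intervals clear of 0. The pair given for each member is the one widest apart. How many of all genes meet this rule was not counted, so the count of members has no share beside it. Without the median taken off, the interval held 0 for *Pfkl* in blood vessel-like, *Pfkp* in red blood cell-like and *Ldhb* in cartilage-like cells. With 1 library per genotype, the difference between the classes was not tested. *Pfkl* was at 0.24 in blood vessel-like and at -0.11 in retinal progenitor-like cells. *Pfkp* was at 0.92 in red blood cell-like and at -0.32 in retinal progenitor-like cells. *Ldhb* was at 0.99 in red blood cell-like cells, where hemoglobin made up 47.1% and 56.8% of the UMIs, and at -0.54 in cartilage-like cells, where the humdG library had 139 cells against 1258. *Bsg* was at 0.47 in surface epithelium-like cells, of which there were 104 and 106, and at -0.19 in neurogenic-like cells.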

How the results depend on the processing

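The median log2 ratio of the 10 members in RPE-like cells, 0.16, stayed above 0 in the 12 alternatives run, from 0.03 with free RNA subtracted to 0.30 with equal weight per cell, except that taking RPE cells by 7 markers instead of by cluster gave 0.56. That rule took 2469 humWT and 978 humdG cells, of which 1994 and 635 lay outside the RPE-like clusters. The number of members more than 1.5 times higher was 2 in 8 of the alternatives tabulated, 1 without integration (*Hk2*), 3 with equal weight per cell and 4 by the 7 markers, and none was more than 1.5 times lower in any. The share of all genes past that ratio was not counted in the alternatives. These counts therefore describe the settings and are no result about the members. *Hk2* ranged from 0.78 to 1.13 and was past 1.5-fold in each. *Slc16a3* ranged from 0.57 to 2.79. Of the 110 single ratios recomputed, 84 moved by less than the counting interval and none that was past 1.5-fold changed sign. The use of the larger RPE-like cluster alone (0.13) and of the larger amacrine and horizontal-like cluster alone was chosen after seeing the data. No paired analysis was possible because each genotype has 1 library. Depth limits *Pfkp* and *Slc16a3* most, with 61 to 95 UMIs per library in RPE-like cells.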

Other observations

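The largest unnamed cluster, 3530 humWT and 7766 humdG cells, is led by *Sncg*, *Cdk8* and *Gphn* and had hemoglobin at 1.53% and 1.85% of its UMIs, beside 1.49% and 1.89% in barcodes with under 1000 UMIs. Its member levels lay below those of RPE-like cells for 9 of 10 members in humWT: *Slc2a1* had 74.7 CPM in humWT and 147 CPM in humdG, *Bsg* 209 and 276 CPM, *Ldhb* 81.4 and 135 CPM, and *Slc16a8* 18.7 and 9.43 CPM. *Pfkp*, with 29.3 and 49.0 CPM, was above its RPE-like level. The log2 ratios there were 0.98 for *Slc2a1*, 0.91 for *Hk2* and 0.90 for *Slc16a3*, and the median over all genes was 0.29.

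In the smaller mesenchyme-like cluster, led by *Tnmd*, *C1qtnf3* and *Scx* and with 234 humWT and 55 humdG cells, *Slc2a1* and *Pfkp* had log2 ratios of -1.31 and -2.56, beside a median of -0.30 over all genes. These rest on 344 and 20 UMIs of *Slc2a1* and 164 and 4 UMIs of *Pfkp*, the last in 3 humdG cells. In the larger mesenchyme-like cluster, with 1096 and 498 cells, the same genes were at 0.71 and -0.04, and *Slc2a1* was above 0 in each of the 12 classes. The difference between the clusters was not tested.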
